A study of Mus musculus with 6 samples.

Results

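The genes that encode voltage-gated and pacemaker ion channels were compared between PID+ and PID- primary colonic tumor cells. Members were selected by symbol, as every gene whose symbol begins with Kcn, Cacn or Hcn, or with Scn and a number, and the family was proposed because the FPKM of Hcn4 in these same data was far higher in PID+ cells. The members' levels and changes are therefore given as a description. The rule found 138 of the 21966 genes measured, made up of 94 Kcn, 26 Cacn, 14 Scn and 4 Hcn genes, and all of them were among the 21959 genes with a quality status of OK in both conditions. The symbol rule is wider than the name of the family, since it also takes the tandem-pore leak channels (Kcnk), the inward rectifiers (Kcnj) and channels opened by calcium or sodium inside the cell.

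PID+ cells came from adenomas of CDX2P-NLS-Cre;APCΔ/+;ROSA26-PID mice and PID- cells from adenomas of CDX2P-NLS-Cre;APCΔ/+ mice, so that both groups carry the Cre transgene and the recombined Apc allele. The Cre and Apc lines were C57BL6/J, and the Rosa26 allele was made in G4 embryonic stem cells. The PID is a peptide from the autoinhibitory domain of Pak1 that blocks the Group I Paks. It is expressed from Rosa26 with a GST tag and an eGFP reporter once Cre, driven by the CDX2 promoter mainly in the epithelium of the large intestine and the distal small intestine, has removed a stop cassette. Mice of these cohorts were followed for 8 months, and the sources used here do not say at what age the cell lines were made. The labels give 3 samples per condition, numbered 4, 7 and 26 for PID+ and 1, 2 and 3 for PID-, and call the PID- samples normal and untreated. The paper numbers its PID- cell lines 35, 48 and 56, and its methods describe the 3 read sets of a condition as repeated sequencing runs. Which lines the PID- values pool, and whether the 3 read sets are separate mice, is therefore uncertain. Values named treated were read as PID+ and those named untreated as PID-.

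The authors merged the reads of a condition before quantification, so each gene has 1 pooled FPKM (read fragments per length of transcript and depth of sequencing) per condition with a confidence interval from CuffDiff. No difference has a replicate check or a p-value, and the spread between cell lines is unknown. Changes are log2 ratios, PID+ over PID-, after adding 1 to each FPKM, which shrinks the change of weakly expressed genes. A gene was called higher or lower when FPKM + 1 differed at least 3-fold, which needs an FPKM of at least 2 in a condition. As the cells were measured in bulk, fewer cells expressing a channel and less channel mRNA per cell cannot be told apart.

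Voltage-gated channels open or close with the voltage across the membrane. Their pore-forming subunits pass potassium, calcium or sodium, and auxiliary subunits change how they gate and how many reach the surface. Hcn channels open when the membrane becomes more negative, bind cAMP, and carry the pacemaker current of the sinoatrial node and of many neurons. Colon epithelium is not a firing tissue, but its potassium channels recycle potassium across the basolateral membrane and so keep up the voltage that drives chloride secretion and sodium uptake.

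Most channel genes had little or no measured expression in both conditions. The FPKM was below 1 in both conditions for 110 of 138 members, and 21 of them were listed at 0 in both. An FPKM of at least 1 was reached by 23 members in PID+ and 18 in PID- cells, of which 13 were shared. The members summed to 232 FPKM with the PID and 229 without it, or 0.0397% and 0.0421% of all FPKM, and with Gapdh set equal the sum with the PID was the lower one, at 151. The composition of this sum differed: Kcnk1 held 42.3% of it in PID+ cells, whereas in PID- cells the most abundant member, Kcnq1, held 20.7%. The 5 most abundant members held 70.5% in PID+ and 62.7% in PID- cells. The median log2 change was 0.00 over the members and 0.00 over all genes, which reflects how many genes lie near 0. Over the 23 members with a mean FPKM of at least 1 it was -0.33, against -0.01 over the 11480 genes with such a mean.

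At least 3-fold higher in PID+ cells were 4 of 138 members (Hcn4, Kcne3, Kcnk1 and Kcnk5), and 7 were at least 3-fold lower, among them Kcns3, Cacna2d1, Kcnu1, Cacna1c, Kcnn4 and Kcnk12. With Gapdh set equal, which moved the median of genes whose mean FPKM reached 5 from 0.00 to -0.59, 2 members were higher and 9 lower. Over all genes 1.04% were higher and 1.72% lower, against 2.90% and 5.07% of the members. Among genes that reached an FPKM of 2 in a condition, 2.08% were higher and 3.42% lower, against 22.2% and 38.9% of the 18 members that reached this level. Since the family was proposed from this contrast, nothing is read from these shares. Nearest to the threshold among the members called higher was Kcnk5, with a log2 change of 1.60. Nearest on the outside were Kcnn2, with 0.89, and Kcnq1, with -1.22. The deposited intervals lay apart for 1 member that was higher, Hcn4, and for 1 that was lower, Kcns3, where 0.187% of all genes lay apart and higher and 0.542% apart and lower.

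**Figure D1:**
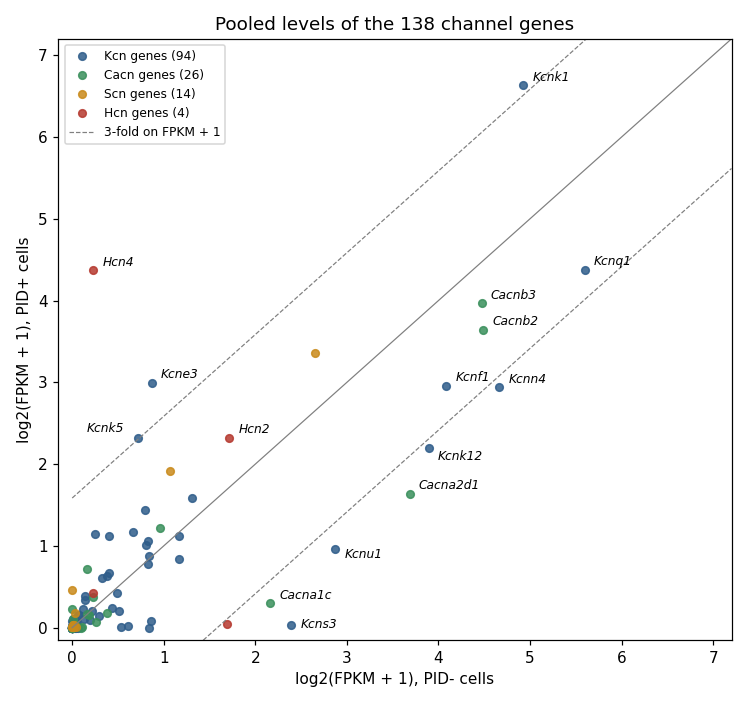
Pooled log2(FPKM + 1) of each channel gene in PID- cells (x axis) and PID+ cells (y axis), coloured by symbol family, with 1 point per gene and no replicates. Hcn4 lies alone at the upper left (19.7 with the PID and 0.173 without it), and most genes sit at the lower left corner.

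By pooled FPKM, the most abundant pacemaker channel gene differed between the conditions. Hcn4 (ENSMUSG00000032338.8, chromosome 9 of GRCm38 from 58823412 to 58863175), the main sinoatrial subunit, had an FPKM of 19.7 in PID+ cells, with an interval from 7.60 to 31.7. In PID- cells its FPKM was 0.173, with an interval from 0 to 0.504. The log2 change was 4.14, number 4 of all genes, and it corresponds to an estimated 7989 reads in PID+ and 97.0 in PID- cells. Hcn4 is annotated with 1 transcript and overlaps no other gene.

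Hcn2, which is common in brain and heart, had 3.99 FPKM with the PID (interval 0.132 to 7.85) and 2.28 without it (0 to 4.80). This difference was within 3-fold, and in each condition the interval of Hcn2 overlapped that of Hcn4. Hcn3 had 0.344 and 0.169, and shares exon bases with the coding gene Pklr, so its reads are uncertain. Hcn4 stood at 4.93 times the FPKM of Hcn2 in PID+ cells and at 0.0760 times in PID- cells. Among all members it was number 3 by level with the PID and number 43 without it.

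The tandem-pore potassium channels, which carry leak currents that set the resting potential, held 107.5 FPKM in PID+ and 44.96 in PID- cells over 14 genes. Of these 2 were called higher and 1 lower. Kcnk1 (ENSMUSG00000033998.8, chromosome 8 from 125995170 to 126030685), which encodes the weakly conducting channel TWIK-1, was the most abundant member in PID+ cells. Its FPKM was 98.3 (interval 44.1 to 152) in PID+ and 29.4 (11.2 to 47.6) in PID- cells (log2 change 1.71). In PID+ cells 1 other member, Kcnq1, had an upper bound above the lower bound of Kcnk1. Kcnk5, an alkaline-activated channel of secretory and absorptive epithelia, had 3.98 FPKM with the PID and 0.647 without it (log2 change 1.60). Kcnk12, a member of the THIK subfamily, had 3.58 with the PID and 13.8 without it (log2 change -1.70). The intervals of Kcnk1, Kcnk5 and Kcnk12 overlapped between the conditions. With Gapdh set equal, the log2 changes of Kcnk1 and Kcnk5 were 1.09 and 1.22, under the 3-fold threshold. The direction of the group was thus mixed, while its summed level was mostly that of Kcnk1 (91.4% with the PID and 65.4% without it).

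The pore-forming voltage-gated potassium channels were the largest group, with 40 genes, of which 34 stayed below an FPKM of 1 in both conditions. They summed to 31.8 FPKM in PID+ and 72.3 in PID- cells. Kcnq1 (ENSMUSG00000009545.11, chromosome 7 from 143106362 to 143427042), the basolateral potassium channel of colonocytes and, with Kcne1, of the cardiac slow delayed rectifier, was the most abundant of them in both conditions. Its FPKM was 19.8 in PID+ cells, with a wide interval from 0 to 60.3, and 47.4 in PID- cells, with an interval from 12.5 to 82.3. The log2 change of -1.22 was within 3-fold, and became -1.82 with Gapdh set equal. Exons of Kcnq1 share bases with the antisense transcript Kcnq1ot1, and neither the library kit nor the counting is stated to use strand, so this level is uncertain. The same holds for exons that Kcne3 shares with Gm34821, Kcnk1 with Gm45875, Cacnb2 with Gm10848, Kcnma1 with 4930519K11Rik and Kcnmb4 with Kcnmb4os1. It also holds for exons that Cacna1a shares with Gm16183 and Kcnn2 with A330093E20Rik and AC121957.1.

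Kcnf1 and Kcns3 encode silent subunits, which form no channel alone and change the gating of other pores. Kcnf1 had 6.78 FPKM with the PID and 15.9 without it (log2 change -1.12). Kcns3 (ENSMUSG00000043673.7, chromosome 12 from 11090202 to 11151056) had 0.0218 in PID+ cells, an estimated 4.10 reads, and 4.24 in PID- cells, an estimated 1100 reads. Its log2 change of -2.36 was the lowest of the family, and its upper bound in PID+ cells, 0.0684, lay below its lower bound in PID- cells, 0.130. Kcns3 was thus close to 0 with the PID, while Kcnf1 was detected in both conditions.

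The auxiliary subunits of the potassium channels numbered 13, and 1 of them was called. Kcne3 (ENSMUSG00000035165.10, chromosome 7 from 100176502 to 100184869), which makes Kcnq1 pass current at all voltages in intestinal crypts, had 6.97 FPKM with the PID and 0.824 without it. The log2 change was 2.13, and the intervals, 0 to 16.2 and 0 to 2.09, overlapped. Since Kcnq1 had the opposite order, the FPKM of Kcnq1 was 2.84 times that of Kcne3 in PID+ cells and 57.6 times in PID- cells. Kcne1 was listed at 0 in PID+ and had 0.0256 in PID- cells, while Kcne2 had 0.172 and 0.0846 and Kcne4 had 0.0710 and 0.144; these were named after their values were seen. Of these 4 Kcne genes, Kcne3 had the highest level in both conditions.

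Channels opened by intracellular calcium or sodium, with their beta subunits and Kcnu1, summed to 10.8 FPKM with the PID and 33.5 without it. Kcnu1 was placed in this group by its symbol. Kcnn4 (ENSMUSG00000054342.7, chromosome 7 from 24370263 to 24386690), the intermediate-conductance calcium-activated channel of crypt epithelium and many proliferating cells, was number 3 by level without the PID. Its FPKM was 6.67 with the PID (interval 0.328 to 13.0) and 24.3 without it (8.35 to 40.3; log2 change -1.72). Kcnu1, best known as a pH-sensitive channel of sperm, had 0.943 with the PID and 6.32 without it (log2 change -1.91). Its sperm partner Lrrc52, chosen after its value was seen, had 0.0153 in PID+ and was listed at 0 in PID- cells. Kcnma1, the large-conductance channel of surface colonocytes, was listed at 0 in PID+ and had an FPKM of 0.782 in PID- cells, an estimated 879 reads over its longest transcript. Its beta subunit gene Kcnmb4, had 1.18 and 1.24, and the gamma subunit gene Lrrc26 had 5.37 and 6.27, both chosen after their values were seen. The inward rectifiers, 15 genes with 0 called, were led by Kcnj4, which had 1.99 with the PID and 1.48 without it (log2 change 0.27), an order that turned with Gapdh set equal (-0.12).

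**Figure D2:**
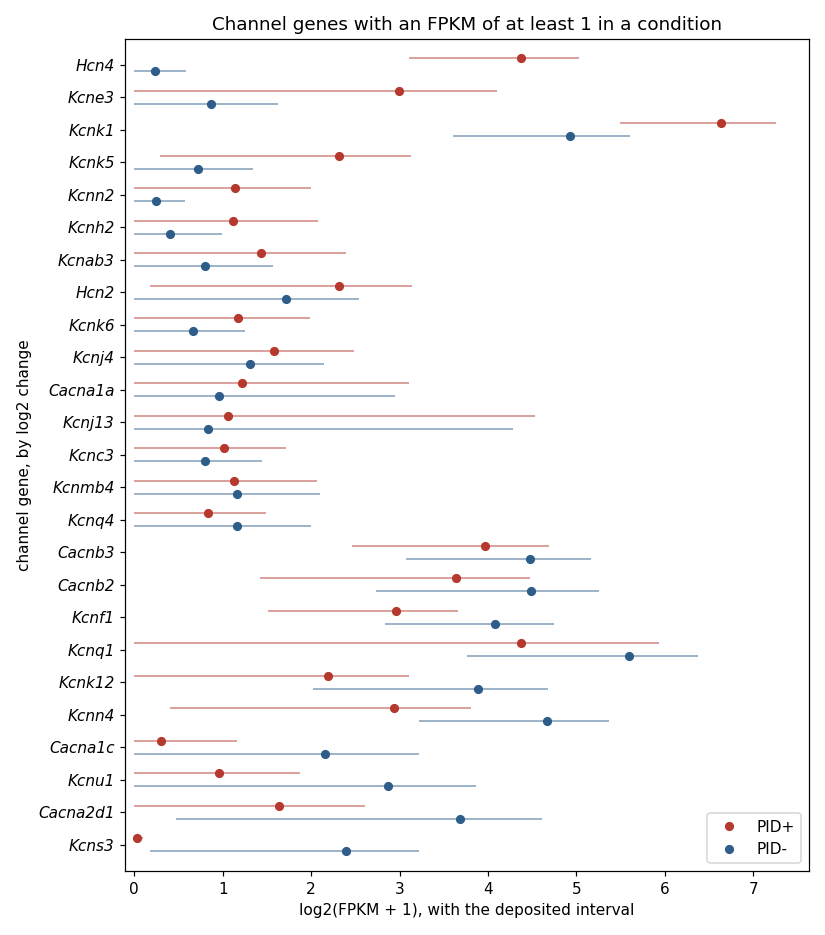
Pooled log2(FPKM + 1) (points) and deposited confidence interval (lines) in PID+ and PID- cells for 25 of the 28 channel genes that reached an FPKM of 1 in a condition, sorted by log2 change. The other 3 are not named in this text and were left out for that reason, not for their values. The intervals lie apart for Hcn4 at the top and Kcns3 at the bottom, and overlap for the genes between them.

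By pooled FPKM, the most abundant calcium channel pore differed between the conditions. Cacna1c (ENSMUSG00000051331.11, chromosome 6 from 118587240 to 119196418), the L-type pore of heart and smooth muscle, had 0.229 FPKM with the PID and 3.46 without it (log2 change -1.86); it led the pores without the PID. In PID+ cells Cacna1a, the P/Q-type pore of nerve terminals, led the 10 pore genes with 1.32, against 0.944 in PID- cells. The order of Cacna1a turned with Gapdh set equal (log2 change 0.26, then -0.07). In PID+ cells the intervals were 0 to 7.63 for Cacna1a and 0 to 1.23 for Cacna1c. In PID- cells they were 0 to 6.71 and 0 to 8.29. The intervals of these pores thus overlapped in each condition, and their order is uncertain.

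Among the 16 auxiliary calcium channel genes 1 was called. Cacna2d1 (ENSMUSG00000040118.12, chromosome 5 from 15934691 to 16374511), the subunit that carries the gabapentin site, had 2.11 with the PID (interval 0 to 5.10) and 11.9 without it (0.386 to 23.3; log2 change -2.05). The beta subunits, which bring the pores to the membrane, were among the most abundant members. Cacnb2 had 11.5 FPKM with the PID and 21.5 without it (log2 change -0.85). Cacnb3 had 14.7 and 21.2 (log2 change -0.50). Without the PID, Cacnb2 and Cacnb3 stood at 6.20 and 6.12 times the level of the pore Cacna1c. In PID+ cells, where Cacna1c was low, the ratios were 50.1 for Cacnb2 and 64.0 for Cacnb3.

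No sodium channel gene was called. The 10 pore-forming genes summed to 9.67 FPKM with the PID and 5.34 without it, and the 4 auxiliary genes to 2.94 and 1.15. Both orders held with Gapdh set equal, where the sums with the PID were 6.27 and 1.91.

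**Figure D3:**
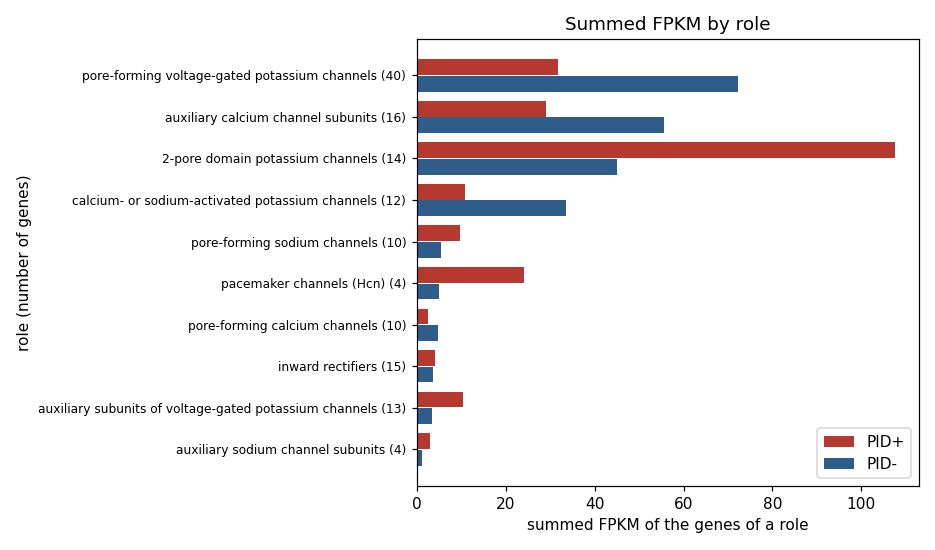
Summed FPKM of the channel genes of each role (bars from 0) in PID+ and PID- cells, with the number of genes in brackets and no replicates. The tandem-pore domain channels hold 107.5 FPKM in PID+ and 44.96 in PID- cells, and the pore-forming voltage-gated potassium channels 31.8 and 72.3.

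By level, the order in PID- cells began with Kcnq1, Kcnk1, Kcnn4, Cacnb2, Cacnb3, Kcnf1, Kcnk12, Cacna2d1 and Kcnu1, and in PID+ cells with Kcnk1, Kcnq1, Hcn4, Cacnb3 and Cacnb2. Of the 10 most abundant members, 7 were the same in both conditions. Neighbours in this order were mostly not separated by their intervals, and that of Hcn4 in PID+ cells overlapped those of 12 other members. All 11 called members were estimated at more than 3 reads in each condition.

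Kcne3 and Kcnn4, both on chromosome 7, were called in opposite directions, as were Kcnk1 and Kcnu1 on chromosome 8. The median log2 change of genes whose mean FPKM reached 5 was 0.25 on chromosome 7, -0.09 on chromosome 9, -0.11 on chromosome 12 and -0.13 on chromosome 8. With the chromosome median subtracted, Hcn4 stood at 4.23, while Kcnk5 came within 3-fold, at 1.34. The 3 nearest measured genes on each side of Hcn4, Kcns3, Kcnk1 and Kcne3, chosen by position, gave 24 neighbours, of which 0 were called and whose log2 changes ran from -0.77 to 1.44. Next to Hcn4, and chosen after their values were seen, Rec114 had 2.32 FPKM with the PID and 0.225 without it (log2 change 1.44), and Neo1 had 22.0 and 31.1 (log2 change -0.48). The difference in Hcn4 was thus larger than that of any of its 6 neighbours.

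For 9 of the 11 called members RefSeq (GRCm38.p6) gave 13 start sites, and Kcnu1 was among those not matched. The 250 bases before each start were searched on both strands for CACCTG, the E-box hexamer bound by Snail and Zeb repressors, and for CTTTGAT and CTTTGAA, letters of TCF/LEF binding motifs. CACCTG, or CAGGTG on the other strand, was present in 3 of the 13 windows, those of Kcnk1, Kcnk12 and the second start of Kcne3, and in 17.2% of the 32851 windows of all genes. CTTTGAT was in 0 and CTTTGAA in 0 of the 13, against 3.21% and 4.46% of all. No match says only that these letters are not in this window. The windows of Hcn4, Kcne3 and Kcnk1, the 3 members with the highest log2 changes, are given 5′ to 3′ to show the base composition and, in capitals, the hexamer. That of Hcn4 (chr9:58822699-58822948, plus strand) is 71.2% G and C, that of the second start of Kcne3 (chr7:100178433-100178682, plus strand) 58.0%, and that of Kcnk1 (chr8:125994852-125995101, plus strand) 44.4%.
Hcn4: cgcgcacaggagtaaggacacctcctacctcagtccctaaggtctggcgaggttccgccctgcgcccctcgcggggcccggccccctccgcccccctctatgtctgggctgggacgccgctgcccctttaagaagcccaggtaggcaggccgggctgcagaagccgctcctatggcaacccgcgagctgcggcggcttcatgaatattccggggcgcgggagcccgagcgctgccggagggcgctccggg
Kcne3: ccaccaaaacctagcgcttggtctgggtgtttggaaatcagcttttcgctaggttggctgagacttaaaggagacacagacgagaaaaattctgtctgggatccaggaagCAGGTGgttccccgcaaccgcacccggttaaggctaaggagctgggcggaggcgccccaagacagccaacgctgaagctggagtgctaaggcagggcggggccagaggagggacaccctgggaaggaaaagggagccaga
Kcnk1: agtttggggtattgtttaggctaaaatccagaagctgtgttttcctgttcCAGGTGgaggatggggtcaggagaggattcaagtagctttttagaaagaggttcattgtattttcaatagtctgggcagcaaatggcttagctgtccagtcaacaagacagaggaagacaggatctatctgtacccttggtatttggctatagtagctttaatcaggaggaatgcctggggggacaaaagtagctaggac

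Transcription factors and partners of the channels were examined from lists, beside 1.04% of all genes called higher and 1.72% called lower. Of 9 transcription factors of the sinoatrial pacemaker, 0 were called in either direction. Gata6 was the most abundant, at 4.50 FPKM with the PID and 8.49 without it. Shox2 and Isl1, which activate the pacemaker program in which Hcn4 takes part, had 0.341 and 0.0637 for Shox2 and 0.0143 and 0.0372 for Isl1, while Tbx5 was listed at 0 in both conditions. Tbx3 had 1.88 with the PID and 0.714 without it, and Tbx18 had 2.92 and 5.96. The genes of this list other than Gata6 were chosen after their values were seen. In PID+ cells Shox2 and Isl1 stayed below an FPKM of 1, while Gata6, Tbx18 and Tbx3 were above it. Whether any of these factors bears on the level of Hcn4 was not tested.

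Of 37 partners and regulators of the channels, 0 were higher and 2 lower, against 1.04% and 1.72% of all genes. Among these 37, 18 had an FPKM of at least 1 in PID+ against 20 in PID- cells. Stac, which promotes calcium channel trafficking, had 1.06 FPKM with the PID and 9.38 without it (log2 change -2.33). Calm2, which encodes calmodulin, the calcium sensor of many of these channels, was the most abundant, at 584 with the PID and 430.4 without it. Rest, a repressor of neuronal genes including Hcn channels, had 13.3 and 12.6; it was named after its value was seen.

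Markers of the cell types that could carry these channels were looked at as whole lists, whose part in the channel results was not tested. Markers that were neither called nor the most abundant of their list were chosen after their values were seen. For the counts of called markers, the shares over all genes were 1.04% higher and 1.72% lower. Epithelial markers were abundant, with 7 of 9 above 1 FPKM with the PID and 8 of 9 without it, and sums of 9083 and 4965, led by Krt18 in PID+ and Krt19 in PID- cells. Epcam (401 in PID+, 124 in PID-) and Cldn7 (274 and 79.4) were called higher. The colonocyte markers were not uniform, since Vil1 had an FPKM of 0.175 and 0.0614 and Cdx2 was called lower, with 0.542 and 8.04. Of the fibroblast markers, 4 of 7 were called lower, among them Col1a2, at 0.0654 with the PID and 11.9 without it. Their sum was 2.92 with the PID and 33.1 without it, led by Col1a1 and Col1a2, and Lum was listed at 0 in both conditions.

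Neuron and cardiac muscle markers were at or near 0, with few exceptions. Of 10 neuron markers 0 were called, Rbfox3 was listed at 0 in both conditions, and Uchl1 (12.0 and 4.04) held most of the sum of 13.1 with the PID and 6.33 without it. Of 8 cardiac markers 0 were called. Tnnt2 held 99.2% and 98.6% of their sum of 76.9 and 65.1, while Myh6 was listed at 0 in PID+ and had 0.0886 in PID- cells, and Ryr2 had 0.00264 and 0.0268. Smooth muscle markers summed to 6.16 and 16.2, led by Acta2 (4.39 and 9.76), and 1 of 7, Actg2, was called lower, with 0.280 and 3.06. Interstitial cells of Cajal, the pacemaker cells of gut muscle, were represented by Ano1 alone, at 128 with the PID and 100 without it, with Kit at 0.601 and 0.409 and the sum at 129 and 100.5. Ano1 is also a chloride channel of epithelia. Glial markers, with 0 of 5 called, summed to 18.7 and 7.80 through Erbb3 (17.7 and 5.88), which epithelia also express, and Sox10 was listed at 0 in both. Enteroendocrine markers, with 0 of 7 called, summed to 0.522 and 0.689, led by Scg2. Endothelial markers, with 0 of 6 called, summed to 3.90 and 1.17, led by Kdr (3.33 and 1.01). Leukocyte markers, with 0 of 7 called, summed to 22.0 and 17, of which Cd68 made up 21.8 and 16.8, while Ptprc had 0.0264 and 0.00811 and Cd3e was listed at 0 in both.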

How the data were processed

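The FPKM and interval bounds used are those the authors deposited from CuffDiff, after CutAdapt, and TopHat on GRCm38.p3 with protein coding genes, 3 read sets per condition being merged. CuffDiff was run with compatible hits normalization, and the annotation release is not given in the sources used here. Of 21966 identifiers, 21734 matched a symbol. Changes used a pseudocount of 1. Named genes were all Hcn genes, members changed at least 3-fold or with intervals apart, the 10 with the highest mean FPKM, Kcnq1, Kcne3, Kcnn4, Kcnma1 and Kcnk5, the leading gene of each role, and of other lists the changed and the most abundant genes. Not every gene that met this rule is named. Members and lists were chosen with earlier results of these data known. Positions, transcript lengths and overlaps came from Gencode M21. Reads were estimated from steps in the FPKM of genes with 1 transcript, after subtracting 190 bases from the length (of 31 values tried, the one with the strongest steps). 89.6% of low values in PID+ and 91.0% in PID- cells were then within 0.1 of a whole number, and the FPKM step of a read was 1.38 times larger in PID+ cells. Genes with several transcripts used the longest, so their reads are approximate, and depth is unknown. Tests planned for separate samples were not run, as values are pooled. Calculations were tested on simulated data. Python 3.11.15, numpy 2.4.6, pandas 2.3.3 and matplotlib 3.10.9 were used.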

Additional observations from a re-analysis of the deposited data

How the results depend on the processing

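No paired analysis was possible because each condition holds 1 pooled value, and for the same reason no replicate could be left out. Against 4 members higher and 7 lower, a pseudocount of 0.1 gave 8 and 11, which included the same 4 and 7. Equal totals gave 3 and 7, equal upper quartiles 4 and 7, the chromosome median subtracted 3 and 6, and a 2-fold threshold 4 and 9. With Gapdh set equal, 2 were higher (Hcn4 and Kcne3) and 9 lower. Keeping a mean FPKM of 5 or more gave 2 and 3, intervals apart 1 and 1, and members overlapping no other gene (70 of 138) 2 and 3, fewer members being eligible in the first and last of these. The log2 change of Hcn4, 4.14, was 6.18 with a pseudocount of 0.1, 4.08 with equal totals, 4.15 with equal upper quartiles, 3.79 with equal Gapdh and 4.23 with the chromosome median subtracted. The median of members, 0.00, was -0.0406 with the chromosome median subtracted, -0.33 at a mean FPKM of at least 1 and -0.99 at 5, and 0.00 with the pseudocount of 0.1, the 3 scalings and members overlapping no other gene. At an FPKM of at least 0.5 in place of 1, 31 members passed in PID+ and 30 in PID- cells, and at 2, 14 and 14. With PID+ scaled to equal Gapdh 16 passed in PID+ cells, so that their excess over the 18 in PID- cells turned; the cause of this was not tested.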

Other observations

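Of 19 genes outside the family that move salt across the colon epithelium, 3 were called higher and 0 lower, with a median log2 change of 0.08. Over all genes 1.04% were called higher and 1.72% lower. Among genes that reached an FPKM of 2 in a condition, as 13 of the 19 did, the shares were 2.08% and 3.42%. Scnn1a, a pore subunit of the epithelial sodium channel, had 67.1 FPKM with the PID (interval 25.2 to 109) and 9.47 without it (2.36 to 16.6), with intervals apart and a log2 change of 2.70. Scnn1g, another subunit, had 4.04 and 0.669 (log2 change 1.59), and Scnn1b, named after its value was seen, 2.18 and 0.783. Fxyd3, a regulator of the sodium pump, had 29.7 and 4.39 (log2 change 2.51). The apical exchangers Slc26a3 and Slc9a3 were near or at 0, with 0.00446 and 0 for Slc26a3 and 0 in both conditions for Slc9a3; both were named after their values were seen.

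Of 42 calcium entry and store channels, 1 was higher and 0 lower, with a median log2 change of -0.01. The shares over all genes, 1.04% higher and 1.72% lower, stand beside this list and the cAMP list below. P2rx2, an ATP-gated channel, had 5.92 FPKM with the PID and 0.213 without it (log2 change 2.51), with intervals from 0 to 12.1 and 0 to 0.531. The most abundant were Piezo1 in PID+ cells, with 34.2, and Itpr3 in PID- cells, with 40.3. Of 21 genes that make or break down cAMP, the ligand of Hcn channels, 0 were higher and 1 lower, with a median log2 change of -0.01. Adcy8, a calcium-stimulated adenylyl cyclase, had 0.450 with the PID and 8.05 without it, with intervals apart and a log2 change of -2.64, while the most abundant, the phosphodiesterase Pde7a, had 27.7 and 18.2.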
